A study of Mus musculus with 4 samples.

Results

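Aminoacyl-tRNA synthetases attach each amino acid to its transfer RNA before translation. Animal cells keep separate sets of these enzymes: cytosolic synthetases that feed the ribosomes of the cytosol, and mitochondrial synthetases that are encoded in the nucleus and serve the few messages of the mitochondrial genome. Several cytosolic enzymes sit together in the multisynthetase complex, and many cytosolic synthetase genes are known targets of ATF4, the transcription factor of the integrated stress response. The 36 synthetase genes described here were picked by a rule on gene names from the 21523 gene identifiers of an FPKM table. Cytosolic enzymes made up 20 of them and mitochondrial enzymes, whose symbols end in 2, the other 16. All 36 were found and all 36 passed the filter of a mean of 1 FPKM, so every member was tested.

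The cells were RAW264.7, a mouse macrophage-like line of leukaemic origin grown in DMEM with 10% serum. The treated cultures received 0.5 mM 1,5-anhydroglucitol (1,5-AG), a polyol that lacks one hydroxyl group of glucose, for 24 h, and the control cultures are labelled as untreated, with no culture time given. There were 2 libraries per group, made from poly(A)-selected RNA with a stranded kit. Nothing in the labels says that replicates came from separate cultures, so p-values measure only library-to-library spread, part of which may be technical. FPKM scales fragments to exon length and to the size of the library, so each value is a share of its library.

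The fragments in genes recovered from the FPKM values numbered 14539322 and 15032626 for the 1,5-AG libraries and 15079309 and 16139012 for the control libraries. Log2 levels of 11120 genes, which are not independent of each other, had a Pearson's r of 0.99 within the 1,5-AG pair, 0.992 within the control pair and 0.988 across groups. The macrophage genes Cd68 (475.4 ± 5.08 FPKM with 1,5-AG, 498.8 ± 1.20 in control) and Csf1r (238.8 ± 2.29 and 258.2 ± 0.237 FPKM; SD, n = 2 per group throughout) were abundant in all libraries. Of 18 markers of fibroblasts, T cells, B cells, neutrophils, epithelium and erythroid cells 6 had a row, with a summed level of 0.579 to 0.819 FPKM in the 1,5-AG libraries and 0.573 to 0.715 FPKM in the control libraries. The summed level of 6 macrophage markers, most of it Lyz2, was 3843.2 and 3759.5 FPKM with 1,5-AG, against 5354.2 and 5227.4 FPKM in control. Lyz2 alone had 3048.0 ± 66.9 FPKM with 1,5-AG and 4487.9 ± 92.9 FPKM in control. It passed the main test described below (limma adjusted p = 0.0169). Cd68, Csf1r, Adgre1 and Ptprc were lower without overlap, against 25.4% of all genes tested, and the groups of Itgam overlapped. These genes did not pass the main test, with limma adjusted p-values from 0.139 (Adgre1) to 0.793 (Itgam). Voom, the second test described below, called Lyz2, Csf1r, Adgre1 and Ptprc lower, against 4.64% of all genes. Fewer cells of a type and less RNA per cell cannot be told apart in bulk RNA, and the part of this shift in the synthetase values was not tested.

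For 16 of the 20 cytosolic synthetase genes both 1,5-AG libraries lay above both control libraries, and the same held for 1 of the 16 mitochondrial genes. The differences were small, at most 0.31 on the log2 scale. None of the 36 genes passed the main test, while a second test on recovered fragments called 12 cytosolic genes and 0 mitochondrial genes. Of all genes tested, 24.2% lay above control without overlap, and the second test called 3.60% higher. Among genes with a mean of at least 20 FPKM, a level chosen after the values were seen, these shares were 37.6% and 9.56%. All 20 cytosolic genes were at that level, and 1 mitochondrial gene was. The summed FPKM of the 20 cytosolic genes was 1192.9 and 1215.9 in the 1,5-AG libraries, against 1066.7 and 1079.9 in the control libraries. The groups did not overlap, and the mean was 12.2% higher with 1,5-AG. The summed FPKM of the 16 mitochondrial genes was 144.0 and 138.8 in the 1,5-AG libraries, against 143.7 and 142.4 in control. Those groups overlapped. The cytosolic sum was 8.28 and 8.76 times the mitochondrial sum with 1,5-AG, against 7.42 and 7.58 times in control.

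The main test was limma on log2(FPKM + 1) with p-values adjusted by Benjamini-Hochberg over 11120 genes and a threshold of 0.05. It called 0.809% of all genes higher and 0.647% lower. Of the 20 cytosolic genes 0 passed, 19 had a positive fold change (18 under quantile normalization, where Vars turned negative), against 49.1% of all genes. Among the genes with a mean of at least 20 FPKM, which include all 20 cytosolic genes, 1711 of 2796 were positive. An unadjusted p under 0.05 was reached by 14 cytosolic genes, all 14 higher, against 9.15% of all genes higher and 9.04% lower. Of the 16 mitochondrial genes 0 passed, 6 were positive and 10 negative, and 1, Rars2, had an unadjusted p under 0.05. The share of all tested genes with both 1,5-AG libraries above both control libraries was 24.2%, beside the 16 of 20 cytosolic and 1 of 16 mitochondrial genes. Both lay below for 0 cytosolic genes and for 2 mitochondrial genes, against 25.4%. The median log2 fold change was 0.16 for the cytosolic genes (range -0.01 to 0.31), -0.03 for the mitochondrial genes (-0.12 to 0.19) and -0.003 for all genes tested.

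The second test, limma's voom on the recovered fragments, called 12 of the 20 cytosolic genes higher and 0 lower. The background of that test was 3.60% of 11056 genes called higher and 4.64% called lower. It called 0 of the 16 mitochondrial genes in either direction, with the lowest adjusted p at 0.129 for Rars2 (0.107 to 0.444 over 12 alternative settings). The 12 cytosolic genes were Nars, Gars, Sars, Lars, Aars, Tars, Yars, Rars, Cars, Iars, Eprs and Farsb. Every cytosolic gene had a mean above 20 FPKM and 1 mitochondrial gene did, and abundant genes were called more often. Among the 2796 genes with a mean of at least 20 FPKM, a level chosen after the values were seen, the 1,5-AG libraries lay above control without overlap for 37.6%, an unadjusted p under 0.05 with a higher level was found for 17.9%, voom called 9.56% higher and the median log2 fold change was 0.03.

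**Figure D1:**
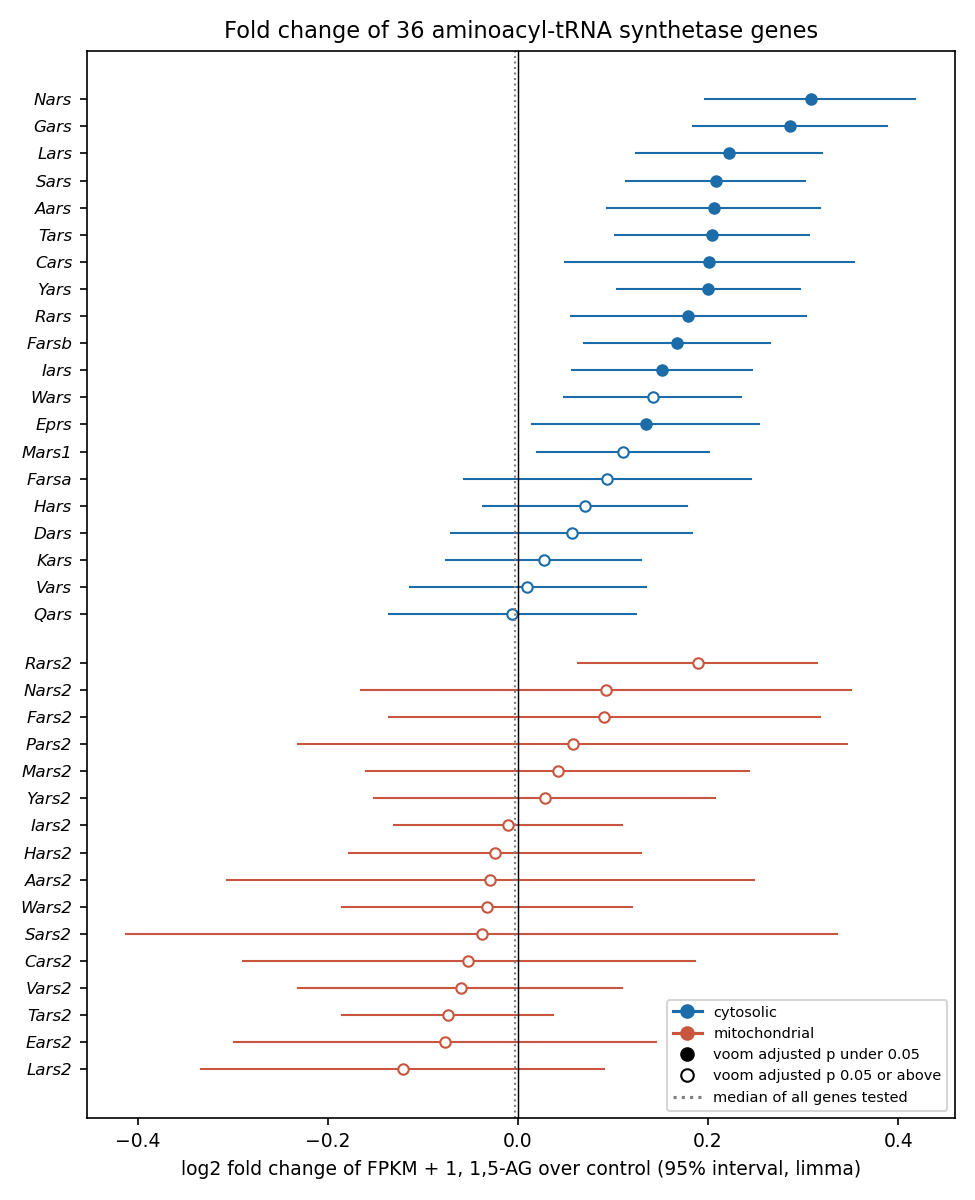
Log2 fold change of FPKM + 1 (horizontal axis, 1,5-AG over control) with its 95% limma interval for the 20 cytosolic genes (upper block) and the 16 mitochondrial genes (lower block), each block ordered by fold change. Filled points passed voom's adjusted threshold of 0.05; 14 cytosolic intervals lie wholly above 0, and 15 of 16 mitochondrial intervals span it.

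Among the cytosolic enzymes outside the multisynthetase complex, 12 of 12 were positive, with a median log2 fold change of 0.20, and voom called 8. Of all genes tested, 49.1% were positive and voom called 3.60% higher. Among genes with a mean of at least 20 FPKM, 1711 of 2796 were positive and voom called 9.56% higher. Nars, which charges asparagine (ENSMUSG00000024587, chromosome 18, 64499647 to 64516652, mm10), had 116.0 and 122.8 FPKM in the 1,5-AG libraries, against 95.08 and 97.50 FPKM in the control libraries. It showed the largest fold change of the 36 genes, 0.31 (SE 0.04). Its adjusted p was 0.0510 with limma and ran from 2.35e-05 (voom) to 0.191 over 12 alternative settings. Gars, the glycine enzyme, whose single gene gives both the cytosolic and the mitochondrial protein (ENSMUSG00000029777, chromosome 6, 55038007 to 55079500), had 107.6 and 112.5 FPKM with 1,5-AG, against 89.27 and 90.84 FPKM in control. Its fold change was 0.29 (SE 0.04), with a limma adjusted p of 0.0504 and a range of 0.0001 (voom) to 0.201 over the alternatives. Neither gene's groups overlapped.

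Sars, which charges serine (chromosome 3, 108424865 to 108445209), had 98.34 and 99.33 FPKM with 1,5-AG, against 84.08 and 86.76 FPKM in control (fold change 0.21, SE 0.04, limma adjusted p = 0.0801). Tars, which charges threonine (chromosome 15, 11382301 to 11399665), had 51.92 and 53.90 FPKM with 1,5-AG, against 45.96 and 45.63 FPKM in control (0.20, SE 0.04, limma adjusted p = 0.0917). Yars, which charges tyrosine (chromosome 4, 129189760 to 129219607), had 38.90 and 38.76 FPKM with 1,5-AG, against 33.69 and 33.65 FPKM in control (0.20, SE 0.04, limma adjusted p = 0.0882). In these 3 genes the 1,5-AG libraries were both the higher ones, and the gap between groups was larger than the gap within either. Aars, for alanine, and Cars, for cysteine, had fold changes of 0.21 and 0.20, also without overlap. Farsb, the beta subunit of the phenylalanine enzyme, had 0.17, and its partner Farsa, the catalytic alpha subunit, had 0.09 with 23.34 and 25.76 FPKM against 22.84 and 22.97 FPKM in control. Wars, for tryptophan, had 0.14 and Hars, for histidine, 0.07. Vars, the valine enzyme, was the member of this set whose groups overlapped, at 85.62 and 84.39 FPKM with 1,5-AG and 87.68 and 81.23 FPKM in control.

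The 8 enzymes of the multisynthetase complex had a median of 0.12, with 7 positive and 4 called by voom. Of all genes tested, 49.1% were positive and voom called 3.60% higher, or 9.56% among genes with a mean of at least 20 FPKM. Lars, which charges leucine (chromosome 18, 42202298 to 42262194), led them with 59.84 and 60.50 FPKM in the 1,5-AG libraries, against 50.65 and 52.24 FPKM in control (fold change 0.22, SE 0.04, limma adjusted p = 0.0785). Rars, for arginine, had 0.18, Iars, for isoleucine, 0.15, Eprs, the fused enzyme for glutamate and proline, 0.13 and Mars1, for methionine, 0.11; none of these 4 overlapped. Dars, for aspartate, Kars, for lysine, and Qars, for glutamine, had 0.06, 0.03 and -0.01, and their groups overlapped. Kars, like Gars, makes the mitochondrial enzyme from the same gene. By catalytic fold, the 9 class I enzymes had a median of 0.15 and the 10 class II enzymes 0.19; Eprs carries both folds and was left out. Differences between these subsets were not tested. The 3 scaffold proteins of the complex were all positive, Eef1e1 at 0.18, Aimp1 at 0.13 and Aimp2 at 0.07. With limma or voom 0 passed, and 1, Eef1e1, had an unadjusted limma p under 0.05, against 9.15% of all genes higher.

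**Figure D2:**
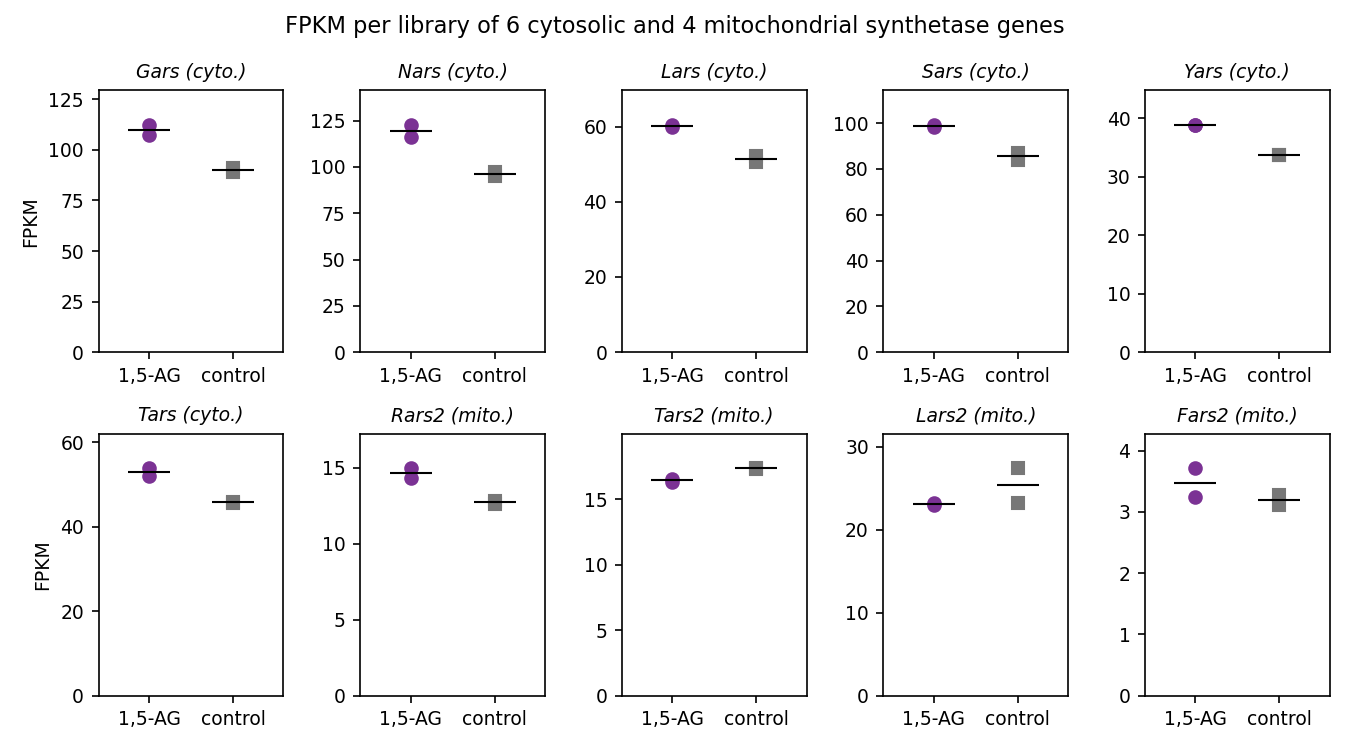
FPKM in each library (vertical axis from 0; circles 1,5-AG, squares control, bar the group mean) for the 6 cytosolic and 4 mitochondrial genes with the smallest limma p. All 6 cytosolic genes and Rars2 have both 1,5-AG libraries above both control libraries, Tars2 has both below, and Lars2 and Fars2 overlap.

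Among the mitochondrial enzymes Rars2, for arginine, had the largest fold change. On chromosome 4 (34614957 to 34660167), it had 14.99 and 14.33 FPKM in the 1,5-AG libraries, against 12.85 and 12.61 FPKM in control (fold change 0.19, SE 0.05, limma adjusted p = 0.146), beside 0.18 for its cytosolic counterpart Rars. Tars2, for threonine, had 16.57 and 16.30 FPKM with 1,5-AG, against 17.33 and 17.37 FPKM in control (-0.07, limma adjusted p = 0.447), with no overlap. Lars2, for leucine, had the most negative fold change, -0.12, with 23.27 and 23.04 FPKM against 23.26 and 27.44 FPKM. The second control library alone was high, and the groups overlapped. Fars2, for phenylalanine, had 3.71 and 3.23 FPKM with 1,5-AG, against 3.28 and 3.11 FPKM in control (0.09, overlapping).

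The other 12 mitochondrial genes lay between -0.08 for Ears2, the glutamate enzyme, and 0.09 for Nars2, the asparagine enzyme. Wars2 (-0.03) was below control without overlap. Positive values were those of Pars2 (0.06), Mars2 (0.04) and Yars2 (0.03), besides Nars2. Iars2 (-0.01), Hars2 (-0.02), Aars2 (-0.03), Sars2 (-0.04), Cars2 (-0.05) and Vars2 (-0.06) were negative, and their groups overlapped. These genes were less precisely measured: the median SE was 0.08 for the mitochondrial genes and 0.04 for the cytosolic genes, with 180 to 4938 fragments per gene and library against 1548 to 8195. The 95% interval of 9 of the 16 mitochondrial genes reached the cytosolic median of 0.16, so a shift of that size was not excluded for those 9; Rars2 is one of them, and its interval lay wholly above 0.

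Paired by amino acid, the cytosolic gene had the larger fold change in 16 of 17 pairs, in which Eprs is paired with both Ears2 and Pars2, and Fars2 with both Farsa and Farsb. The median difference within pairs was 0.17. The difference was widest for leucine, at 0.22 for Lars and -0.12 for Lars2, then for threonine (0.20 and -0.07) and cysteine (0.20 and -0.05). Arginine was the exception, at 0.18 for Rars and 0.19 for Rars2. The cytosolic gene was also the more abundant per length in every pair, from 2.30 times for leucine to 43.8 times for asparagine. The difference between the cytosolic and mitochondrial medians over the whole sets was 0.19. It was 0.11 without 1,5-AG replicate 2, where the mitochondrial median turned to 0.03. It was not tested, since members are not replicates and the smallest two-sided p of a permutation of 2 against 2 libraries is 0.333. Between libraries of a group, the gap between the median log2 levels of the 2 sets had an SD of 0.155, close to that difference. That SD was 0.034 for the cytosolic median alone and 0.133 for the mitochondrial median. The gap between the mean log2 levels was 2.705 and 2.791 with 1,5-AG, against 2.57 and 2.627 in control, without overlap.

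**Figure D3:**
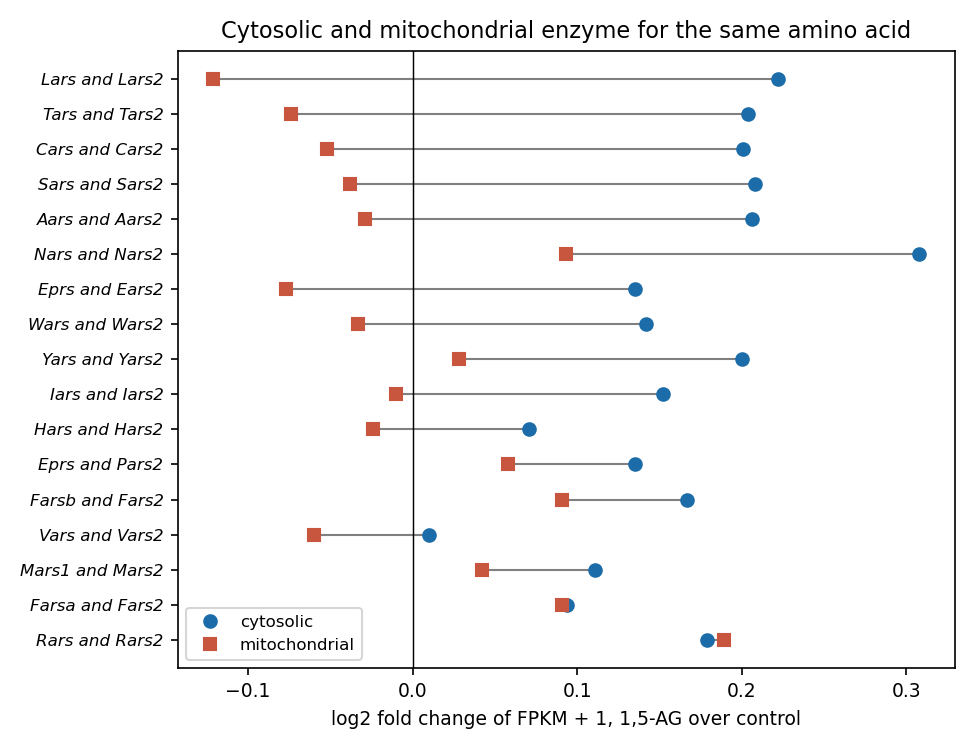
Log2 fold change of FPKM + 1 (horizontal axis, 1,5-AG over control) of the cytosolic gene (circle) and the mitochondrial gene (square) for the same amino acid, ordered by their difference. The cytosolic circle lies to the right in 16 of 17 pairs, from a difference of 0.34 for leucine to -0.01 for arginine.

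Promoters were read from RefSeq (GRCm38.p6, the build of mm10) as 250 bases before to 50 bases after the RefSeq start of each gene. These starts are not always those of the GENCODE gene coordinates given above: the RefSeq start lies 143 bases downstream of the GENCODE start in Yars, 50 bases upstream in Sars and, at the widest, 5229 bases downstream in Tars2. The C/EBP-ATF response element, written TGATGNAA and searched on both strands, is the site through which ATF4 is known to act on amino acid genes. It was found in 4 of the 12 cytosolic genes searched, Gars, Yars, Tars and Iars, and in 0 of 14 mitochondrial genes, against 4.51% of 27024 gene symbols searched. The other 8 cytosolic genes, among them Nars, Lars, Rars, Cars, Hars, Vars and Wars, and the mitochondrial genes Hars2 and Pars2 were not searched. Of the 12 genes that voom called 7 were searched and 5 were not. Those 7 were among the 12 cytosolic genes searched, and the 4 genes with a match were among the 7. Whether a match goes with a call was not tested. A match is a description of letters and not of a bound site. The matches are shown with 10 bases on each side, on the strand that reads TGATGNAA, with the element in capitals, because they let the copies be compared between genes.
Gars: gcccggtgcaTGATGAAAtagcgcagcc
Tars: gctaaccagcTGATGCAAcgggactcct
Yars: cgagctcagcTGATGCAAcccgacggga
Iars: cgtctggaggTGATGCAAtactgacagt
The element read TGATGAAA in Gars and TGATGCAA in Tars, Yars and Iars. Outside the element the flanks differed between genes, except that Tars and Yars shared cagc directly before it and c directly after it. The first base of the match, counted along the gene from the RefSeq start, was 30 bases before it in Gars (-30; chr6:55037971-55037978) and 15 before it in Tars (-15; chr15:11399666-11399673). With the RefSeq start as base 1, it was base 4 in Yars (chr4:129189906-129189913) and base 8 in Iars (chr13:49682137-49682144). In Yars the element ran on the gene's own strand, and in the other 3 genes on the opposite strand.

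Whole promoters are given for Gars, with the smallest limma p of the 36 genes, and for Sars, with a fold change of 0.21 and no match, both on the strand of the gene, with the match in capitals. They cover chr6:55037751-55038050 on the plus strand and chr3:108445210-108445509 on the minus strand. They were chosen after the values were seen, since no member passed the main test.
Gars promoter: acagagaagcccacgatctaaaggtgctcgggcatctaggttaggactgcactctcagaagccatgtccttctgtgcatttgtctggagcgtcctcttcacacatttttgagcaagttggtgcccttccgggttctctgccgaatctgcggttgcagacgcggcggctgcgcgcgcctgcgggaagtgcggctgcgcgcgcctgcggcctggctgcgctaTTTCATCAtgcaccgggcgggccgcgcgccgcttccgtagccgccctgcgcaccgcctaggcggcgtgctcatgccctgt
Sars promoter: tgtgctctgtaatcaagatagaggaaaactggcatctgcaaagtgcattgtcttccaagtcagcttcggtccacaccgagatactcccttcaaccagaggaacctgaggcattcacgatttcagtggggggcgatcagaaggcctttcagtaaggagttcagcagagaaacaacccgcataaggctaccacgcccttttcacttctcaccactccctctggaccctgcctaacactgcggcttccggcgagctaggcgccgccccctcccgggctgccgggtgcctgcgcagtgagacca
The capitals in the Gars promoter read as the reverse complement of the element, and the Sars window holds neither form. Farsb, Eprs, Mars1, Farsa, Dars, Kars and Qars likewise held no match in this window. In Qars the RefSeq start lies 299 bases downstream of the GENCODE start, so its window began inside the GENCODE gene.

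Some of these genes lie near each other. Hars and Hars2 stand head to head on chromosome 18, with annotated ends that overlap and 195 bases of shared exon on opposite strands, and had fold changes of 0.07 and -0.02. Eprs and Iars2 point away from each other on chromosome 1 with 33648 bases between them, and had 0.13 and -0.01. Other genes in that gap were not looked for. The sources used here do not give the strand setting of the counting. Fragments in overlaps on opposite strands may have been counted for either gene or for neither. Such overlaps took 22.9% of the exon of Iars2, shared with Rab3gap2, and 9.47% of that of Farsb, shared with Sgpp2 (mean 0.0454 FPKM). Aars shares 14.3% of its exon with Exosc6 on its own strand, and its level is uncertain to that extent.

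Related genes were described from lists chosen with earlier results of these data known. In the list of ATF4 and its targets other than synthetases, 25 of 27 tested genes were positive, with a median of 0.25, and 2 passed limma. Asns, the asparagine synthetase that makes the amino acid charged by Nars, rose, with 79.07 and 82.91 FPKM in the 1,5-AG libraries, against 58.59 and 63.44 FPKM in control (0.40, limma adjusted p = 0.0461). Ddit4, an inhibitor of mTORC1, rose, with 5.54 and 6.15 FPKM against 3.65 and 3.41 FPKM in control (0.60, limma adjusted p = 0.0454). Neither passed with 1 library left out, and the adjusted p ran up to 0.172 for Asns and 0.166 for Ddit4 over the alternatives. Atf4 itself had 144.7 and 138.9 FPKM with 1,5-AG, against 117.8 and 115.1 FPKM in control, a fold change of 0.28 that missed the threshold (limma adjusted p = 0.0504). Psph, Psat1 and Phgdh, which make serine, had 0.49, 0.20 and 0.21. Voom called 12 of the 27 higher and 0 lower, Atf4 and these 3 among them. Over all genes 49.1% were positive, limma called 0.809% higher and voom called 3.60% higher. The negative genes of the list were Cebpb and Slc38a2 (-0.02), and Slc38a2 lay below control without overlap. The proapoptotic factor gene Ddit3 (0.12), whose exons overlap those of Mars1 by 68 bases on the opposite strand, and Cebpb (-0.01) were not called.

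The 4 stress kinases that lead to ATF4 through eIF2alpha had negative fold changes, from -0.07 to -0.15, and 0 passed with limma or voom. The haem-regulated kinase Eif2ak1 (-0.12) and the ER stress kinase Eif2ak3, or PERK (-0.15), had unadjusted limma p-values of 0.0475 and 0.0499. Of all genes tested, 49.1% had a positive fold change and 9.04% were lower at an unadjusted limma p under 0.05. Other charging genes, which include the amidotransferase subunits Qrsl1, Gatb and Gatc, had 3 of 7 positive and a median of -0.005. None of the 7 passed with limma or voom, and 0 had an unadjusted limma p under 0.05. Their smallest p-values were those of Gatb (-0.10) and Tarsl2 (-0.06). Both lay below control without overlap, as 25.4% of all genes tested did. Mitochondrial translation factors were positive in 3 of 10 cases, at a median of -0.005, and 0 were past either test or at an unadjusted limma p under 0.05. The 2 with the smallest p were Guf1 (0.16) and Gfm1 (0.07).

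Cytosolic initiation and elongation factors were positive in 16 of 20 cases, at a median of 0.08, with 0 past limma, 6 at an unadjusted p under 0.05 and 1 called by voom. That gene was Eif2s2, the beta subunit of eIF2 (41.30 and 41.90 FPKM with 1,5-AG, against 35.75 and 36.59 FPKM in control, 0.20). Eif2s3x, the gamma subunit, had 0.14. In the list of tRNA maturation genes 13 of 15 were positive and the median was 0.08, with 0 past limma, 2 at an unadjusted p under 0.05 and 1 called by voom, the tRNA methyltransferase gene Nsun2 (0.15). Rpp30, a subunit of RNase P, had 0.19. Over all genes 49.1% were positive, 9.15% were higher at an unadjusted limma p under 0.05 and voom called 3.60% higher. Among genes with a mean of at least 20 FPKM, 1711 of 2796 were positive, 17.9% were higher at that p and voom called 9.56% higher. The medians of these cytosolic lists lay between those of the cytosolic and the mitochondrial synthetases, and differences between lists were not tested.

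**Figure D4:**
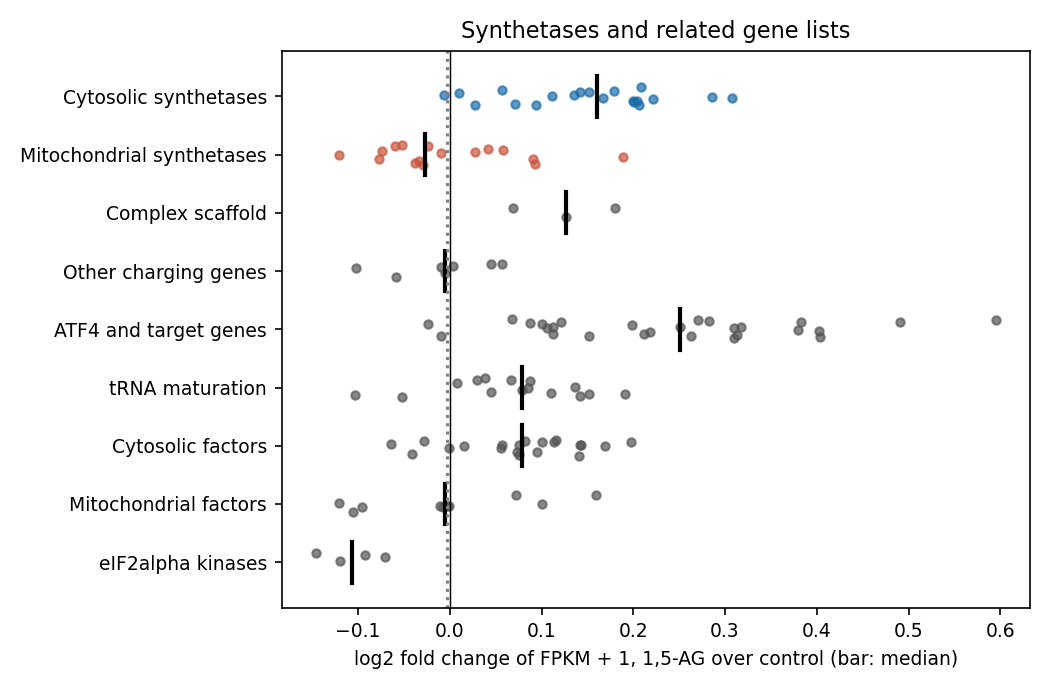
Log2 fold change of FPKM + 1 (horizontal axis, 1,5-AG over control) of each tested gene (point, spread vertically for legibility) in the cytosolic and mitochondrial synthetases and 7 related lists, with the list median as a bar and the median of all genes as a dotted line. The cytosolic synthetases (median 0.16) and the ATF4 list (0.25) lie to the right of the mitochondrial synthetases (-0.03).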

How the data were processed

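The table the authors deposited gives FPKM for 21523 Ensembl mouse genes, 1 column per library. Per the submitters' processing notes, the tools were HTSeq, Cufflinks, HISAT2 and Trimmomatic and the build mm10; the sources used here give no versions, roles or annotation release. Symbols, exon lengths and coordinates came from GENCODE M21 on the same build, which matched 21508 identifiers. FPKM times exon length gave whole fragments, within 0.02, for 99.4% of matched genes. The sources used here do not say how reads of near-identical copies were counted.

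Groups were tested with limma 3.58.1 (R 4.3.3) on log2(FPKM + 1), with a variance trend, for the 11120 genes with a mean of at least 1 FPKM. Fold changes are 1,5-AG minus control on that scale, which understates low genes. Alternatives covered pseudocount, filter, scaling, trend, replicate block, voom and each library left out. The gene family and the lists were chosen with earlier results of these data known; within the family a rule on names picked the members. Library values are given for the 6 cytosolic and 4 mitochondrial genes with the smallest p; for related lists, genes past the threshold or the 2 with the smallest p are named, and others were chosen after their values were seen. Intervals cover the spread between libraries only. Some items of the lists and of the promoter search are not reported here.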

Additional observations from a re-analysis of the deposited data

How the results depend on the processing

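The alternatives were planned. Cytosolic genes past the threshold, 0 in the main test, numbered 4 when the filter was 5 FPKM, 2 with median-ratio scaling, 2 with the replicate block (Gars and Nars) and 12 with voom, and stayed at 0 with 1 library left out. Mitochondrial genes past it numbered 0 under each of the 12 alternatives, of 10 tested at 5 FPKM and 16 otherwise. The median cytosolic fold change, 0.16, was 0.12 under quantile normalization and 0.14 to 0.17 with 1 library left out; the mitochondrial median was -0.05 to 0.03, and the difference 0.11 to 0.22. Of all genes 162 passed, against 360 at 5 FPKM, 310 with the replicate block, 911 with voom, 0 without a filter, 5 without the variance trend and 2 to 10 with 1 library left out. In the related lists 2 genes passed, against 7 at 5 FPKM, 7 with the replicate block, 14 with voom, 1 under quantile normalization, and 0 without a filter, without the variance trend or with 1 library left out. Some settings impose fewer genes or libraries; beyond that the cause was not tested. Across genes, the deviations of libraries with the same number had a correlation of 0.0124; the labels do not say that a number marks a pair, and 2 pairs cannot settle it.

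Of 426 refitted member values 388 kept their sign and side, 20, all cytosolic, gained the threshold and 18 changed sign, none of the 18 past it. Under quantile normalization this was Vars (-0.036). The others, with 1 library left out, were values of Qars (-0.048 to 0.036), Vars (-0.044 to 0.065), Aars2 (-0.147 to 0.089), Cars2 (-0.136 to 0.033), Hars2 (-0.083 to 0.034), Iars2 (-0.036 to 0.016), Mars2 (-0.019 to 0.102), Pars2 (-0.074 to 0.189), Sars2 (-0.226 to 0.15), Vars2 (-0.127 to 0.006) and Yars2 (-0.059 to 0.115). A fit without 1 library assumes that the lone sample varies like the other group.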
